A study of Homo sapiens with 6 samples.

Results

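The 10 genes described here encode ligands and receptors through which a tumour cell holds back or engages immune cells: CD274, PDCD1LG2, CD276 and VTCN1 of the B7 family, the nectin-type ligands NECTIN2 and PVR, the receptor TNFRSF14, the galectin LGALS9, and the pair CD47 and SIRPA. They were chosen by symbol from a list proposed with earlier results of these data known, so their values are given as a description without a test. All 10 were found among the 60612 Ensembl identifiers of the count table. Of these, 9 passed the filter on low counts and were among the 20334 genes tested, and VTCN1 did not.

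RNA was measured in 6 libraries of T24, an established human bladder cancer line. In 3 libraries, labelled FOXF1-activated in genotype and treatment, the cells carried a lentivirus (Lenti-dsFOXF1-367) that expresses a short hairpin made from the most efficient of the small activating RNAs against FOXF1, a forkhead transcription factor. In the other 3, labelled negative control and of WT genotype, they carried a lentivirus with a control hairpin (Lenti-dsControl). Puromycin at 3 µg/ml was used to select stably infected cells, and ribosomal RNA was depleted before strand-marked libraries were read in pairs of 150 bases. Separate cultures are not stated for the replicates, so a p-value here measures the spread between libraries, which may be technical.

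Immune checkpoints are receptor and ligand pairs that dampen immune cells. PD-L1 (CD274) and PD-L2 (PDCD1LG2) on a tumour cell engage PD-1 on T cells. CD47 engages SIRPA on macrophages and limits phagocytosis, while the nectin ligands are shared by the inhibitory receptor TIGIT and the activating receptor CD226 on T and NK cells. SIRPA is best known from myeloid cells and neurons, so its level in a carcinoma line concerns the receptor side of that pair.

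Library totals lay between 72500854 and 77198669 counts, and 25268 to 26862 identifiers were above 0 in a library. FOXF1, the targeted gene, had 5.94, 4.78 and 5.10 CPM (counts in parts per 1000000 of the library, with library sizes scaled by the trimmed mean of M values, TMM) in libraries labelled FOXF1-activated, against 7.51, 7.10 and 7.95 CPM in the negative control. Its log2 fold change was -0.51 (SE 0.14, edgeR adjusted p = 0.0109), lower in all 3 libraries and opposite in direction to their label, so every direction below is that of the libraries labelled FOXF1-activated. Of the bladder epithelial markers, KRT7, KRT8, KRT18, KRT19, PPARG and FOXA1 were above 1 CPM, while KRT5, TP63, UPK1A and UPK3A were at 0 in every library. The summed epithelial markers came to 1230 to 1316 CPM in libraries labelled FOXF1-activated, against 1715 to 1840 CPM in the control. Of the 9 tested epithelial markers, 3 fell (KRT7, KRT8 and EPCAM), 2 rose (FOXA1 and PPARG) and 4 were not called; KRT7 averaged 203 CPM in libraries labelled FOXF1-activated and 539 CPM in control, and FOXA1 8.13 CPM in libraries labelled FOXF1-activated and 3.57 CPM in control. The 4 mesenchymal markers summed to 4667 to 5100 CPM in libraries labelled FOXF1-activated, against 33758 to 36311 CPM in control, most of it fibronectin (FN1), which averaged 2898 CPM in libraries labelled FOXF1-activated and 32495 CPM in the control. VIM and CDH2 fell too (log2 fold changes -0.59 and -0.49, edgeR adjusted p = 4.88e-04 and 3.85e-04), while ZEB1 was not called (0.04, adjusted p = 0.716). In bulk RNA, fewer cells of a type and less RNA per cell cannot be told apart.

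The largest differences among the checkpoint genes ran in opposite directions. CD274 was 5.20-fold higher in libraries labelled FOXF1-activated, whereas SIRPA was 9.92-fold higher and TNFRSF14 5.19-fold higher in the negative control. NECTIN2 was 1.81-fold higher in libraries labelled FOXF1-activated, and the other 5 tested genes lay within a smaller range. The libraries did not overlap between groups for 8 of the 9 tested genes, of which 4 lay higher and 4 lower, while 68.8% of all tested genes did not overlap, 33.5% higher and 35.3% lower. A difference without overlap was therefore common in this table, and the count of 8 in 9 is not a result about these genes. The median log2 fold change of the 9 was -0.05, beside 0.00 over all tested genes. At least 2-fold differences were seen in 3 of the 9, 1 higher and 2 lower, beside 7098 of 20334 genes.

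**Figure D1:**
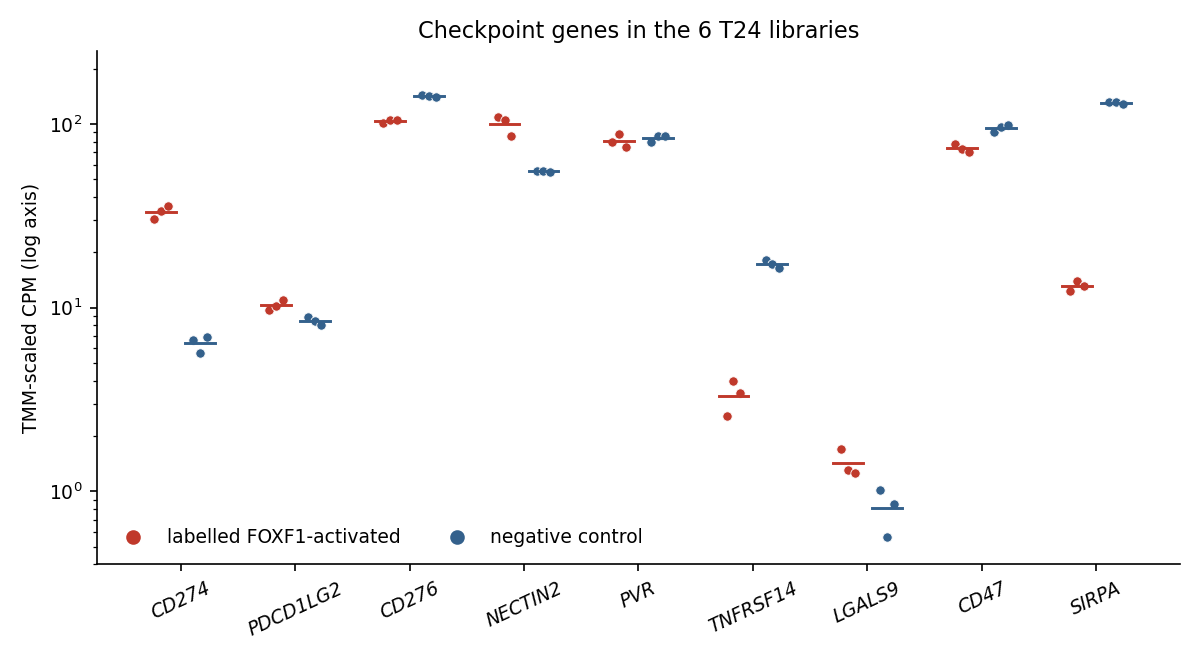
TMM-scaled CPM (log axis) of the 9 tested checkpoint genes in each library, with the 3 libraries labelled FOXF1-activated left of the 3 negative control libraries and a line at each group mean. CD274 and NECTIN2 sit above the control, SIRPA and TNFRSF14 sit far below it, and the groups overlap for PVR.

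The PD-1 ligand genes are neighbours on the short arm of chromosome 9, yet differed in size of change. CD274 (ENSG00000120217, GRCh38 chr9:5450503-5470566, plus strand) had 30.3, 33.4 and 35.6 CPM in libraries labelled FOXF1-activated, against 6.62, 5.63 and 6.87 CPM in the negative control. The lowest of the libraries labelled FOXF1-activated was thus over 4 times the highest control library. CD274 averaged 33.1 ± 2.63 CPM in libraries labelled FOXF1-activated and 6.37 ± 0.657 CPM in control (SD, n = 3 each), and its log2 fold change was 2.38 (SE 0.11). These values rest on counts of 2136, 2369 and 2664 in libraries labelled FOXF1-activated and of 528, 432 and 514 in control. PDCD1LG2 (ENSG00000197646, chr9:5510570-5571254, plus strand), the gene of the second PD-1 ligand, starts 40.0 kb beyond the end of CD274. It had 9.66, 10.1 and 11.0 CPM in libraries labelled FOXF1-activated, against 8.89, 8.40 and 8.05 CPM in control. These values do not overlap, but they lie close together, with a log2 fold change of 0.28 (SE 0.11). Per kilobase of annotated exon, CD274 stood at 1.81, 1.897 and 1.86 times PDCD1LG2 in libraries labelled FOXF1-activated, against 0.429, 0.386 and 0.492 times in control, so the order of the pair was turned round.

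The promoter of CD274 is where interferon-gamma signalling is known to act, through interferon regulatory factors at interferon-stimulated response elements (ISRE) and through STAT proteins at gamma-activated sites (GAS). RefSeq windows of 250 bases before to 50 bases after the gene start, on GRCh38.p14, matched 8 of the 10 genes (9 windows, since CD276 has a pair), while PDCD1LG2 and SIRPA are named only. Shown here are the windows of the genes with a motif match and that of TNFRSF14, the other gene with a large difference and a window, each 5′ to 3′ on the plus strand, which is the strand of all 3 genes. CD274 lies at chr9:5450292-5450591, TNFRSF14 at chr1:2556121-2556420 and LGALS9 at chr17:27630938-27631237. The TNFRSF14 and LGALS9 windows follow the RefSeq start and lie inside the gene bounds that GENCODE gives. Capitals mark the ISRE and GAS matches.
CD274: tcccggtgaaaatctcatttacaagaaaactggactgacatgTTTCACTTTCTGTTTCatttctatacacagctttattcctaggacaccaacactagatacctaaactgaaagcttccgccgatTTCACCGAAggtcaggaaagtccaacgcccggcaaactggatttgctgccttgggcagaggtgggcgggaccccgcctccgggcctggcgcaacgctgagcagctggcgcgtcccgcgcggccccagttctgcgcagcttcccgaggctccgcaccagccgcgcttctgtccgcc
TNFRSF14: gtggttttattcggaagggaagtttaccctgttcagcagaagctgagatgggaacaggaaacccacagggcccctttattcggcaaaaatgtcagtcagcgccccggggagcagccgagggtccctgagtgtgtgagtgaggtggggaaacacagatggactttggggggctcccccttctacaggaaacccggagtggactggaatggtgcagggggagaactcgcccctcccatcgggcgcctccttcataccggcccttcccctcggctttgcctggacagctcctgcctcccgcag
LGALS9: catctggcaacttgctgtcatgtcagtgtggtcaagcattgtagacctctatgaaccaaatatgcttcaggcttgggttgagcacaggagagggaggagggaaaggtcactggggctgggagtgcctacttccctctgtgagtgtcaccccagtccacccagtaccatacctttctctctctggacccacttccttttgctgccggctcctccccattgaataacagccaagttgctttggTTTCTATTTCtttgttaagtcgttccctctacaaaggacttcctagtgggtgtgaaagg
The CD274 window held an overlapping pair of ISRE matches (GAAA, any 2 bases, then GAAA, on the strand opposite the gene) from base -208 to -199 and from -202 to -193 relative to the gene start. It also held a GAS match (TTCNNNGAA) from -125 to -117. In the LGALS9 window an ISRE match ran from -9 to 1, again on the opposite strand. On either strand, 3.57% of all 35116 RefSeq windows of this length hold the ISRE letters and 7.66% hold the GAS letters. None of the 9 windows held the NF-kB letters (GGG, any 2 bases, then TTTCC) or the forkhead core TAAACA, which 1.91% and 12.3% of all windows hold. A match is a description of these letters and no evidence of binding.

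The other B7 genes differed less than CD274. CD276 (B7-H3, ENSG00000103855, chr15:73683966-73714518, plus strand), a ligand whose receptor is still debated, had 100.6, 105.0 and 105.1 CPM in libraries labelled FOXF1-activated, against 143.1, 141.6 and 140.4 CPM in control. The replicates were tight, all 3 lay below the control, and the log2 fold change was -0.45 (SE 0.05). Per kilobase, CD276 was 2.46, 2.33 and 2.19 times CD274 in libraries labelled FOXF1-activated, against 16.03, 18.6 and 15.1 times in control. VTCN1 (B7-H4, ENSG00000134258, chr1:117143587-117210960, minus strand), another T cell inhibitory B7 gene, had counts of 0, 0 and 3 in libraries labelled FOXF1-activated and 4, 0 and 0 in control. At that depth no difference in VTCN1 was detectable.

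The nectin ligand genes lie 182.6 kb apart on chromosome 19, and only one of the pair separated the groups. NECTIN2 (CD112, ENSG00000130202, chr19:44846175-44889228, plus strand), which binds TIGIT, PVRIG and CD226, had 109.0, 104.9 and 86.2 CPM in libraries labelled FOXF1-activated, against 55.2, 55.1 and 55.0 CPM in control. Replicate 3 of the libraries labelled FOXF1-activated stood below the other 2 but still above every control library. NECTIN2 averaged 100.05 ± 12.2 CPM in libraries labelled FOXF1-activated and 55.1 ± 0.110 CPM in control (SD, n = 3 each), and its log2 fold change was 0.86 (SE 0.08). PVR (CD155, ENSG00000073008, chr19:44643798-44663583, plus strand), the stronger TIGIT ligand, had 80.0, 87.6 and 74.95 CPM in libraries labelled FOXF1-activated, against 79.9, 86.3 and 85.6 CPM in control. These groups overlap, and the log2 fold change of -0.05 (SE 0.07) turned to 0.045 under upper-quartile scaling. CEACAM19 overlaps PVR on the same strand and had 1380 counts summed over libraries labelled FOXF1-activated and 263 over the control. PVR itself had 17456 counts over libraries labelled FOXF1-activated and 19405 over the control. The ratio of NECTIN2 to PVR per kilobase was 1.28, 1.13 and 1.08 in libraries labelled FOXF1-activated, against 0.649, 0.600 and 0.604 in control, so NECTIN2 was the higher of the pair in one group and PVR in the other.

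TNFRSF14, which signals on T cells and engages them from tumour cells, was far lower in libraries labelled FOXF1-activated, and LGALS9 was the least abundant tested checkpoint gene per length in both groups. TNFRSF14 (HVEM, ENSG00000157873, chr1:2555639-2565382, plus strand), a receptor that also serves as ligand for the inhibitory BTLA and CD160, had 2.56, 3.99 and 3.40 CPM in libraries labelled FOXF1-activated, against 18.0, 17.4 and 16.3 CPM in control. Every library labelled FOXF1-activated lay far below the range of the control. TNFRSF14 averaged 3.32 ± 0.723 CPM in libraries labelled FOXF1-activated and 17.2 ± 0.862 CPM in control (SD, n = 3 each), and its log2 fold change was -2.38 (SE 0.17). An antisense gene, TNFRSF14-AS1, had 86 counts over libraries labelled FOXF1-activated and 94 over the control. TNFRSF14 itself had 718 counts over libraries labelled FOXF1-activated and 3992 over the control. No source used here gives the strand setting of the counting, and reads of the antisense partner cannot be told apart where the genes overlap. LGALS9 (galectin-9, ENSG00000168961, chr17:27629798-27649560, plus strand), a secreted lectin reported to bind TIM-3, had 1.69, 1.31 and 1.26 CPM in libraries labelled FOXF1-activated, against 1.02, 0.560 and 0.856 CPM in control. The gap between the groups was smaller than the range within either, and the log2 fold change was 0.81 (SE 0.31). It rests on counts of 119, 93 and 94 in libraries labelled FOXF1-activated and of 81, 43 and 64 in control. Other annotated genes share 13.2% of the 50-base stretches of LGALS9 and 3.37% of its 150-base stretches, so its count is uncertain to that extent. LGALS9C shares the most at 50 bases (6.95%) and ENSG00000266728 the most at 150 bases (2.22%). ENSG00000266728 overlaps LGALS9 on the same strand and had 0 counts in both groups.

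CD47 and its receptor were both lower, by very different amounts. CD47 (ENSG00000196776, chr3:108043094-108091862, minus strand) had 78.1, 72.6 and 69.9 CPM in libraries labelled FOXF1-activated, against 90.7, 95.7 and 99.1 CPM in control. The groups stood apart by more than the spread in either, with a log2 fold change of -0.37 (SE 0.06). SIRPA (ENSG00000198053, chr20:1894167-1940592, plus strand) had 12.2, 14.0 and 13.1 CPM in libraries labelled FOXF1-activated, against 131.8, 131.1 and 127.7 CPM in control. The replicates of each group were close, and the log2 fold change of -3.31 (SE 0.07) was the largest of the 9 in size. Only 3.67% of tested genes had a log2 fold change as large in either direction, beside 8.03% for CD274 and 8.05% for TNFRSF14. Per kilobase, CD47 exceeded SIRPA 3.94, 3.20 and 3.28 times in libraries labelled FOXF1-activated, whereas in control it stood at 0.424, 0.450 and 0.478 times SIRPA. CD14, a marker of monocytes, which express SIRPA, averaged 0.871 CPM in libraries labelled FOXF1-activated and 5.80 CPM in control (-2.73, adjusted p = 3.93e-05). The myeloid markers LYZ (0.303 CPM in libraries labelled FOXF1-activated and 0.240 CPM in control) and CSF1R (0.346 CPM in libraries labelled FOXF1-activated and 0.124 CPM in control) were not called. The labels name T24 only, and any part of monocytes in the SIRPA values was not tested. SIRPA shares 15.1% of its 50-base stretches with other genes (10.6% with SIRPB1, the most of any) and 4.25% of its 150-base stretches (3.08% with SIRPB1), so reads in those stretches could be split between the paralogs.

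Set side by side per kilobase of annotated exon, the 9 tested genes changed places. In the libraries labelled FOXF1-activated, NECTIN2 (26.7 ± 3.24 CPM per kb) and PVR (23.0 ± 1.81) came first and overlapped each other, followed by CD276 (18.7 ± 0.468), CD47 (8.94 ± 0.508) and CD274 (8.06 ± 0.641), of which CD47 and CD274 overlapped. PDCD1LG2 (4.34 ± 0.291), SIRPA (2.59 ± 0.175), TNFRSF14 (0.534 ± 0.116) and LGALS9 (0.248 ± 0.041) followed without overlap. In control, SIRPA (25.7 ± 0.433 CPM per kb) and CD276 (25.6 ± 0.244) overlapped at the top, and PVR (23.9 ± 0.988), NECTIN2 (14.7 ± 0.029), CD47 (11.6 ± 0.516), PDCD1LG2 (3.57 ± 0.178), TNFRSF14 (2.77 ± 0.139), CD274 (1.55 ± 0.160) and LGALS9 (0.142 ± 0.040) followed, each apart from the next. All of these are means ± SD over 3 libraries. SIRPA thus stood in seventh place in libraries labelled FOXF1-activated and in first place in control. Summed over the genes, the level was 94.0, 96.7 and 88.5 CPM per kb in libraries labelled FOXF1-activated, against 108.8, 110.1 and 109.4 in control. SIRPA made up 2.78 ± 0.193% of that sum in libraries labelled FOXF1-activated and 23.5 ± 0.442% in control (SD, n = 3 each). NECTIN2 made up 28.6 ± 2.48% in libraries labelled FOXF1-activated and 13.4 ± 0.1001% in control. CD274 made up 8.68 ± 0.997% in libraries labelled FOXF1-activated and 1.42 ± 0.152% in control. The sum moved far less than its makeup.

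**Figure D2:**
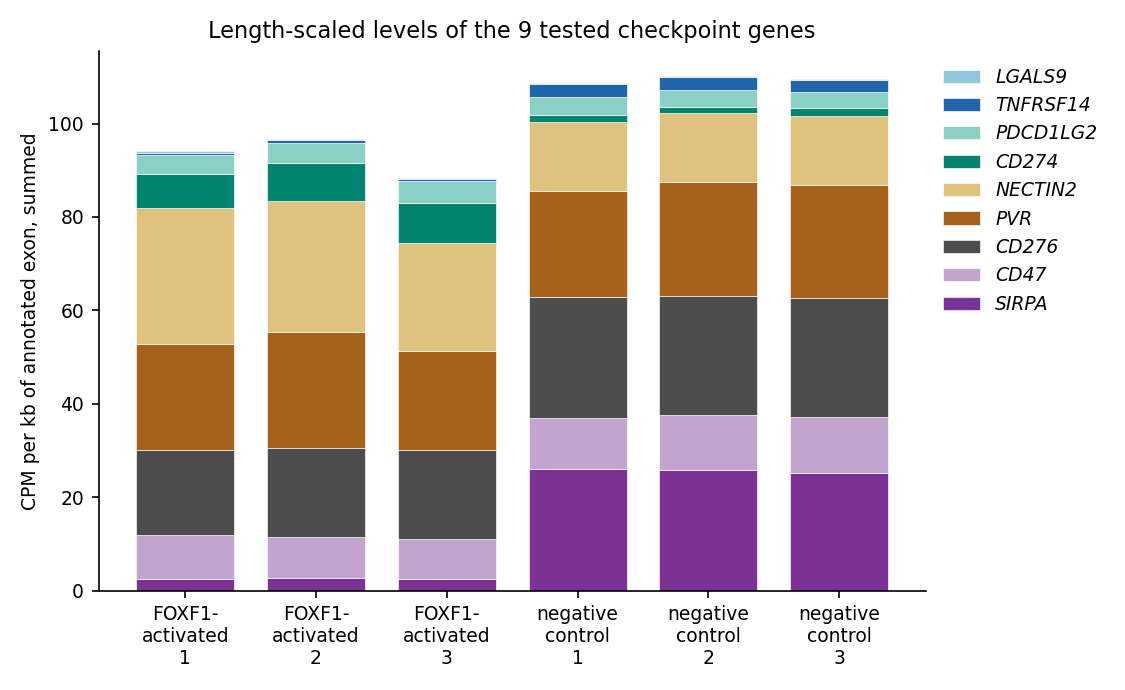
TMM-scaled CPM per kilobase of annotated exon, stacked over the 9 tested checkpoint genes for each library, with the 3 libraries labelled FOXF1-activated left of the 3 negative control libraries. The band of SIRPA is thin in the first 3 bars and wide in each control bar, while the bands of CD274 and NECTIN2 are wider in the first 3.

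Around these genes, 106 others were listed by function or position, of which 92 were tested; 26 rose and 43 fell in libraries labelled FOXF1-activated, where 60.7% of all tested genes were called by edgeR at an adjusted p under 0.05, 29.2% higher and 31.5% lower. The median log2 fold change of the 92 was -0.21. The lists are described one by one, with the genes of smallest p named in each.

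Among 14 tested B7, butyrophilin and other checkpoint ligand genes, 3 rose, 10 fell and 1 was not called (median log2 fold change -0.46). BTN2A1, a butyrophilin recognised by gamma-delta T cells, rose to a mean of 89.2 CPM in libraries labelled FOXF1-activated, against 38.2 CPM in control (log2 fold change 1.22, adjusted p = 9.62e-08). NCR3LG1 (B7-H6), the ligand of the NK receptor NKp30, rose to 50.3 CPM against 24.1 CPM in control (1.06, adjusted p = 3.13e-06). ICOSLG, the ligand of the co-stimulatory receptor ICOS, fell to 0.985 CPM against 7.26 CPM in control (-2.88, adjusted p = 1.85e-06). IDO1, the tryptophan-degrading enzyme induced by interferon-gamma, fell to 0.133 CPM against 2.77 CPM in control (-4.36, adjusted p = 9.30e-06). CD80 and CD86, the ligands of CD28 and CTLA-4, did not pass the filter.

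Of 10 tested genes of the TNF ligand and TNF receptor superfamilies, TNFRSF14 being a member of the latter, 4 rose, 3 fell and 3 were not called (median 0.14). The count of 4 was 2 with no filter, with a filter of 1 CPM in 3 libraries, with counts divided by 4, and where replicate 2 of the control or replicate 3 of the libraries labelled FOXF1-activated was left out. CD70, the ligand of CD27, had 4.39, 3.06 and 3.66 CPM in libraries labelled FOXF1-activated, against 26.9, 20.8 and 23.8 CPM in control, and fell (-2.69, adjusted p = 5.47e-07). CD40, through which T helper cells license antigen-presenting cells, fell to 27.5 CPM against 72.9 CPM in control (-1.41, adjusted p = 4.81e-07). LTBR, the lymphotoxin beta receptor, which shares the ligand LIGHT with TNFRSF14, fell to 161.9 CPM against 370.0 CPM in control (-1.19, adjusted p = 2.32e-07). TNFSF15, a ligand of the receptor DR3, rose to 5.76 CPM against 0.673 CPM in control (3.09, adjusted p = 2.81e-04). Its log2 fold change ranged between 2.67 and 3.69 where 1 library was left out, and was 3.69 without replicate 1 of the control.

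No other nectin or nectin-like gene was called higher. Of 5 tested, 2 fell and 3 were not called (median -0.12), and none was higher by edgeR at an unadjusted p under 0.05 or by any of the 15 alternatives, DESeq2 and limma-voom among them. NECTIN1, an adherens junction protein, fell to 1.26 CPM against 2.73 CPM in control (-1.12, adjusted p = 0.00363), and the nectin-like CADM4 fell to 2.76 CPM against 8.63 CPM in control (-1.64, adjusted p = 9.06e-05). NECTIN3 (-0.12, adjusted p = 0.272) and CADM1 (0.51, adjusted p = 0.142) were not called.

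Of 10 tested ligands of NK cells, 3 rose, 6 fell and 1 was not called (median -0.98). ICAM1, the adhesion ligand of LFA-1, rose to 516 CPM against 223 CPM in control (1.21, adjusted p = 7.62e-08). The stress ligands MICA and MICB, both recognised by the activating receptor NKG2D, went opposite ways. MICA, named for that contrast after its values were seen, had 52.5, 53.2 and 54.9 CPM in libraries labelled FOXF1-activated, against 25.4, 25.3 and 20.4 CPM in control (1.17, adjusted p = 3.14e-06). MICB had 6.32, 5.91 and 5.74 CPM in libraries labelled FOXF1-activated, against 31.0, 27.9 and 27.9 CPM in control (-2.27, adjusted p = 9.08e-08). CD58, the ligand of CD2 (-1.79, adjusted p = 1.81e-06), and BAG6, an NKp30 ligand when released (-0.90, adjusted p = 4.30e-07), fell.

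CD274 is a textbook target of interferon-gamma signalling, and most genes listed for that route, inhibitors among them, were lower where CD274 was higher. All 13 listed genes were tested, of which 2 rose, 10 fell and 1 was not called (median -0.73). The inhibitors SOCS1 (-3.86, adjusted p = 0.0020), SOCS3 (-0.92, adjusted p = 9.92e-04) and PTPN2 (-1.12, adjusted p = 6.86e-05) fell. They were named after their values were seen, and SOCS1 was under 1 CPM in both groups. IRF1, the transcription factor that carries the interferon signal to the CD274 promoter, had 22.9, 23.1 and 24.6 CPM in libraries labelled FOXF1-activated, against 78.4, 70.6 and 76.6 CPM in control, and fell (-1.68, adjusted p = 6.65e-08). The receptor chains split: IFNGR2 fell (-0.98, adjusted p = 1.74e-06) and IFNGR1 rose (0.81, adjusted p = 6.76e-06). STAT3, which acts mainly downstream of interleukin-6 family receptors, rose to 225 CPM against 142 CPM in control (0.67, adjusted p = 1.03e-05). The fall of IRF1 beside the higher CD274 is a measured contrast, and its bearing on CD274 was not tested.

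Of 15 tested genes known to set the stability or traffic of the PD-L1 protein, 6 rose, 5 fell and 4 were not called (median 0.03), and the 5 became 3 under upper-quartile scaling or without control replicate 2. ZDHHC3, a palmitoyl transferase reported to act on PD-L1, fell to 29.8 CPM against 95.1 CPM in control (-1.67, adjusted p = 1.15e-07), while ZDHHC9, another of that family, rose to 92.7 CPM against 65.9 CPM in control (0.49, adjusted p = 2.92e-05). CUL3, the scaffold of the ubiquitin ligase that targets PD-L1 (0.71, adjusted p = 1.95e-05), and the kinase GSK3B (0.63, adjusted p = 2.00e-05) rose. SPOP, the substrate adaptor of that ligase, fell to 40.9 CPM against 56.45 CPM in control (-0.47, adjusted p = 5.31e-04). It was named for that contrast after its values were seen. These are transcript levels, and no protein was measured.

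Around CD47 and SIRPA, all 17 listed partners were tested; 4 rose, 6 fell and 7 were not called (median -0.19). SIRPB1, the activating paralog of SIRPA, had 96.6, 105.9 and 105.8 CPM in libraries labelled FOXF1-activated, against 346.5, 360.6 and 365.8 CPM in control, and fell (-1.80, adjusted p = 2.15e-08). ITGB3, an integrin chain that CD47 associates with, fell to 9.85 CPM against 76.4 CPM in control (-2.96, adjusted p = 3.90e-08). The phosphatase SHP-2, which SIRPA recruits when phosphorylated, is encoded by PTPN11, which rose to 643 CPM against 288 CPM in control (1.16, adjusted p = 7.83e-08). SKAP2, an adaptor that binds SIRPA in macrophages, fell to 21.1 CPM against 56.7 CPM in control (-1.42, adjusted p = 3.06e-07).

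**Figure D3:**
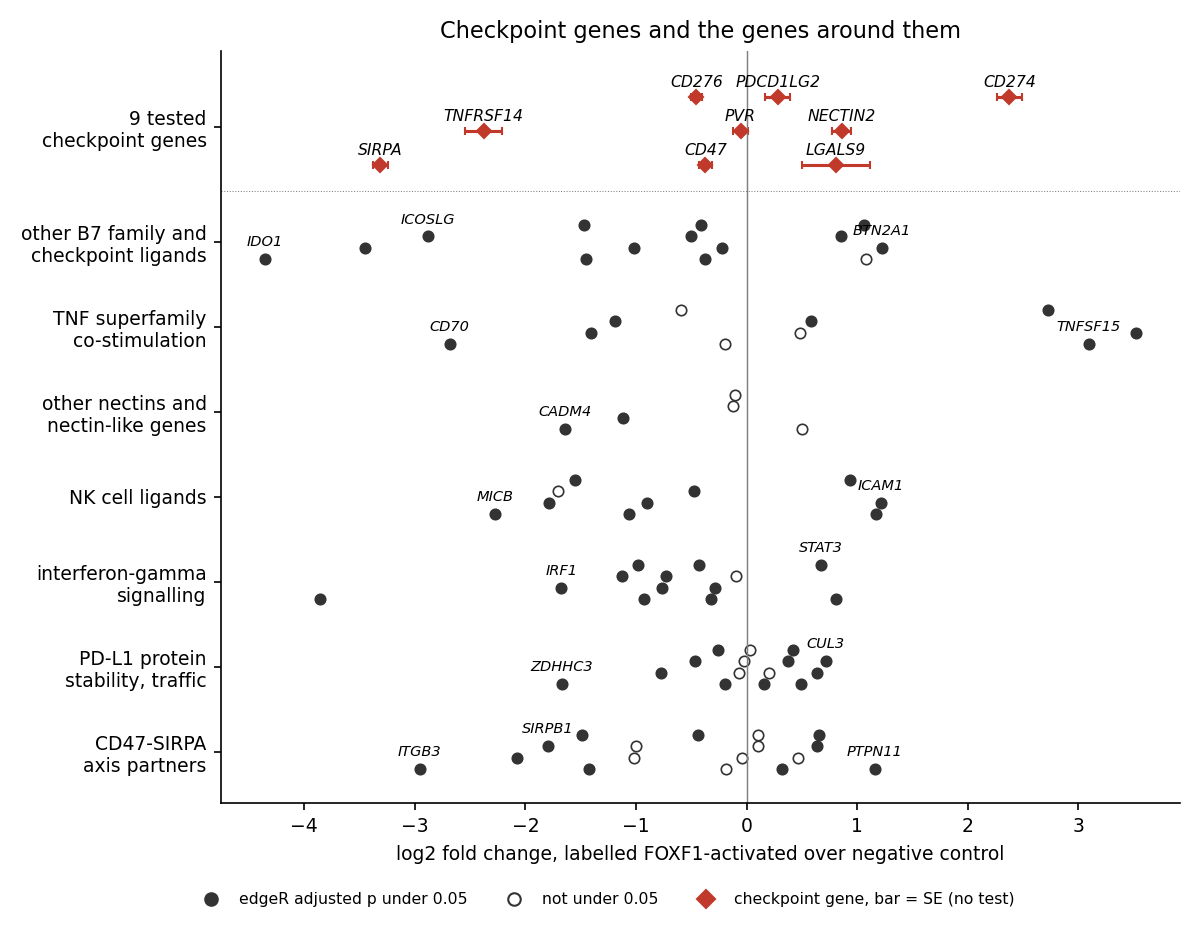
Log2 fold change, libraries labelled FOXF1-activated over negative control, for the 9 checkpoint genes (red diamonds, bars are SE, no test) and for each tested gene of 7 related lists (filled circles, edgeR adjusted p under 0.05; open circles, not under 0.05). The interferon-gamma list lies mostly left of 0, with IRF1 at -1.68, while CD274 stands at 2.38.

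Genes beside the CD274 and SIRPA loci were then read, first for CD274. Of 9 listed neighbours on chromosome 9, 4 rose, 2 fell and 3 were not called (median 0.04), and the 2 became 1 under upper-quartile scaling or without replicate 1 of the libraries labelled FOXF1-activated. AK3 fell (-1.004, adjusted p = 1.97e-06), while CDC37L1 (0.84, adjusted p = 3.01e-05), RIC1 (0.58, adjusted p = 6.03e-05) and UHRF2 (0.58, adjusted p = 1.03e-04) rose. PLGRKT, whose start lies nearest to that of CD274, was not called (-0.11, adjusted p = 0.707). Within 500 kb of CD274, 11 tested genes were found besides PDCD1LG2, a window chosen after the values were seen. Of these, RIC1, ERMP1 and 3 pseudogenes under 1 CPM (MTND4P14, MTND5P14 and TCF3P1) rose, 5 in all, and JAK2 and RLN2 fell. Near SIRPA, 11 other genes were tested within 500 kb, of which 1 rose and 7 fell. Among those that fell, ENSG00000242324, ENSG00000260861, ENSG00000271523 and SIRPG-AS1 averaged at most 2.20 CPM in either group. Other genes share 20.9% of the 50-base stretches of SIRPD and 20.2% of those of SIRPB1, and 10.7% and 9.43% of their 150-base stretches. For SIRPD these genes were ENSG00000242324 and ENSG00000260861 only. For SIRPB1, ENSG00000260861 shared the most, with SIRPA and SIRPG among the others. Reads could be split between genes that share stretches, and how far their falls are separate was not tested. SIRPD fell beside SIRPB1 (-2.08, adjusted p = 2.21e-05), and STK35, on the other side of SIRPA, rose to 93.1 CPM against 44.4 CPM in control (1.07, adjusted p = 9.77e-07). SIRPG was not called (-1.02, adjusted p = 0.0849). All 7 that fell, NSFL1C (-0.26) among them, lie on the side of the SIRPA paralogs, but so do 9 of the 11 tested genes.

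**Figure D4:**
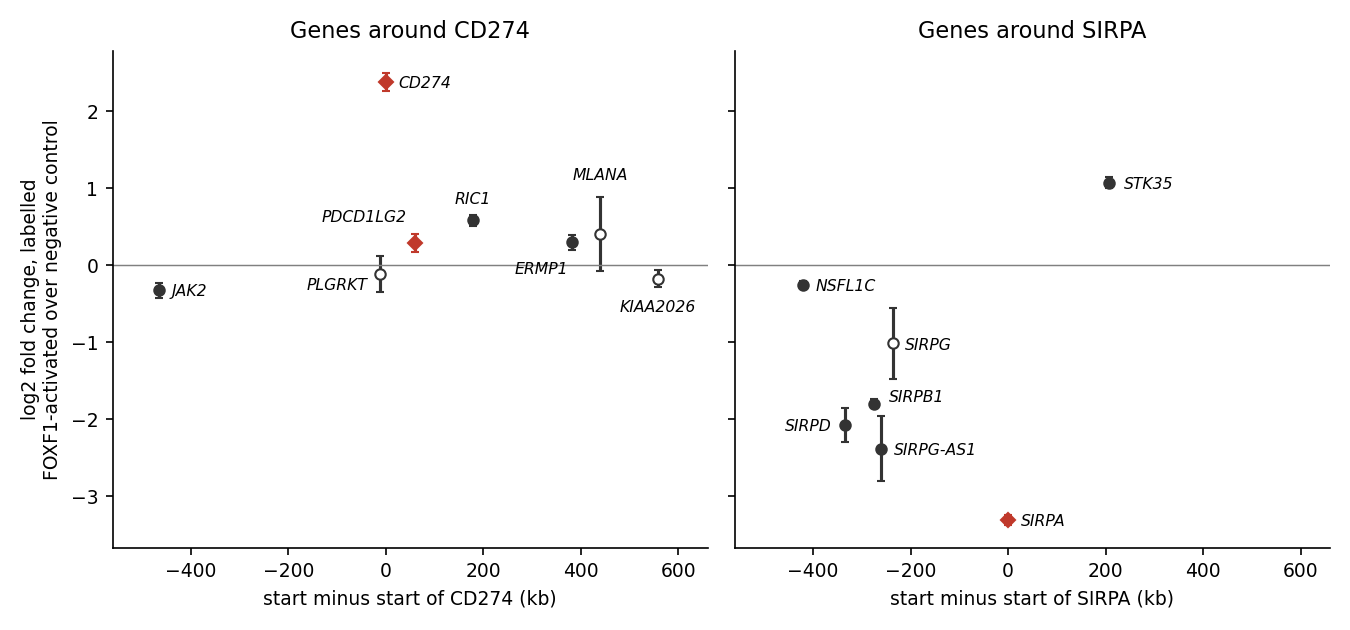
Log2 fold change (bars are SE) against the distance of gene starts in kb for named genes within 500 kb of CD274 and of SIRPA with a mean of at least 1 CPM in either group (filled, edgeR adjusted p under 0.05; open, not under 0.05; red diamonds, checkpoint genes without a test). CD274 at 2.38 stands above every plotted neighbour, and SIRPA at -3.31 below its falling paralogs. Genes not plotted near CD274, all under 1 CPM, were MTND5P14 (7.59), MTND4P14 (4.79), TCF3P1 (3.52), IGHEP2 (2.59) and RLN2 (-3.55). Near SIRPA, the unplotted ENSG00000271523 (-3.56, 1.22 CPM in control) lies below SIRPA.

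Immune cells could also carry these transcripts, so their markers were read beside the results. The 10 immune cell markers summed to 26.3 to 29.7 CPM in libraries labelled FOXF1-activated and to 24.1 to 31.5 CPM in control, with 5 of 10 above 1 CPM and none at 0 in every library. Of the 8 tested, PTPRC (adjusted p = 0.0243) and CD3E (adjusted p = 0.0195) rose, CD8A (adjusted p = 0.0160) and CD14 fell, and 4 were not called. PTPRC (CD45) averaged 15.0 CPM in libraries labelled FOXF1-activated and 11.6 CPM in control, and CD3E 7.93 CPM in libraries labelled FOXF1-activated and 5.06 CPM in control. CD8A, a marker of cytotoxic T cells, averaged 1.30 CPM in libraries labelled FOXF1-activated and 2.11 CPM in control. CD4 averaged 1.22 CPM in libraries labelled FOXF1-activated and 1.25 CPM in control (adjusted p = 0.928). The labels name no cells besides T24, and any part of immune cells in the checkpoint values was not tested. The 13 listed checkpoint and co-stimulatory receptors of immune cells summed to 8.85 to 9.84 CPM in libraries labelled FOXF1-activated, against 6.44 to 7.47 CPM in control. Of the 10 of these tested, 2 rose, CD28 to 2.94 CPM against 1.86 CPM in control (adjusted p = 0.0151) and LAG3 to 1.05 CPM against 0.225 CPM in control (adjusted p = 0.0450), and the other 8 were not called, CD96 (0.29, adjusted p = 0.402) and CD226 (0.12, adjusted p = 0.776) among them.

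The genes whose profile over the 6 libraries came nearest to each checkpoint gene were found by the root mean square difference of centred log2 CPM over 10952 genes. For CD274 these were ENTPD7 (0.0794) and the chemokine CXCL1 (0.0936), and 3 genes in all lay within 0.1. For SIRPA they were BMF (0.0189) and the interferon-induced IFIT3 (0.0787), with 4 genes within 0.1, and for TNFRSF14 they were PICK1 (0.0702) and the metallothionein MT1E (0.0844), with 3. These 3 had the largest differences of the checkpoint genes, so their low numbers of near genes may only restate that size. For CD276, SPTBN1 (0.0156) and H2AJ (0.0189) were nearest among 804 genes within 0.1, and for CD47, SMYD2 (0.0220) and TENT4A (0.0272) among 599. PDCD1LG2 was nearest to SPATS2L (0.0275) and INTS4 (0.0298), PVR to ZBTB9 (0.0326) and ZSWIM7 (0.0327), and NECTIN2 to CNEP1R1 (0.0393) and DCAF10 (0.0562). LGALS9 had no gene within 0.1, and its nearest were RAB6B (0.149) and ADA (0.163). The measure is over 6 libraries in 2 groups, so a gene with a like difference between the groups scores as near.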

How the data were processed

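Gene counts of 6 libraries were deposited by the authors as 1 table of raw counts per Ensembl identifier. Per the submitters' processing notes, cutadapt 1.9, TopHat2 2.0.4 and GRCh38 were used; no source used here names the program that counted the reads, whether it used strand, or its gene annotation. Counts of 4, 8 and 12 were 2.36, 1.94 and 1.60 times as frequent as their neighbouring values in the deposited count table, so counts divided by 4 were tried as an alternative. Of the identifiers, 60401 matched a symbol and 58394 were in GENCODE 29, which gave coordinates and exon lengths.

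The count table was fitted whole with edgeR 4.0.16 (R 4.3.3), using filterByExpr (minimum count 10, minimum total 15), TMM scaling, the quasi-likelihood test and Benjamini-Hochberg adjustment over 20334 genes. The fit was first run on simulated data in which far fewer genes differed than were called here. That run therefore does not check the fit where most genes differ. The checkpoint genes and all lists were chosen with earlier results of these data known, so the checkpoint genes carry no p. Named from each related list were up to 4 genes with the smallest p, from the marker and receptor lists those above 1 CPM, and for each checkpoint gene the 2 genes of at least 5 CPM nearest in profile (pseudocount 0.01 CPM). No replicate pair agreed within sampling noise (chi-square per degree of freedom 19.6 to 33.4). Other scalings, filters, DESeq2 1.42.0, limma-voom (limma 3.58.1), a replicate block and leaving out each library were tried.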

Additional observations from a re-analysis of the deposited data

How the results depend on the processing

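Under the 15 alternatives, genes called across the table ranged between 11014 and 12831, and calls in the related lists between 22 and 29 higher and 38 and 44 lower; leaving out 1 library in turn gave 11487 to 12002, 23 to 25 and 42 to 44. The replicate numbers do not pair the libraries (correlations of deviations -0.0202, -0.000998 and -0.0206), and with the number as a replicate block 11790 genes were called, with 24 higher and 43 lower in the related lists. FOXF1 ranged between -0.60 and -0.41 in log2 fold change and was lower under every alternative. CD274 ranged between 2.29 and 2.48, SIRPA between -3.39 and -3.21, TNFRSF14 between -2.53 and -2.22, NECTIN2 between 0.78 and 0.96, CD276 between -0.53 and -0.35 and CD47 between -0.45 and -0.27. Checkpoint genes without overlap numbered 8, or 9 without replicate 2 of the libraries labelled FOXF1-activated. LGALS9 (0.60 to 0.997) is limited by depth, and with 3 libraries a group, outliers within a group were not tested.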
